A study of Mus musculus with 6 samples.

Results

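Transcripts of 10 genes for bile acid and organic anion transporters were compared in fibrotic mouse liver. These carriers and pumps move bile acids, phospholipid and conjugated anions across the hepatocyte membrane. All are protein-coding genes, with coordinates given here on GRCm38. They were chosen by gene symbol, with earlier results of these data known, and matched to the Ensembl identifiers of the deposited count table. They are 10 of the 41388 genes in it, and 9 of them had enough counts to be tested, among 15939 tested genes. RNA came from liver of BALB/c mice with fibrosis caused by the hepatotoxin carbon tetrachloride (CCl4), given to both groups for 5 weeks. One group of 3 libraries came from mice given AL/NP, nanoparticles loaded with the bisphosphonate alendronate at 4 mg/kg, with 2 injections a week over the last 2 weeks. The other 3 libraries came from fibrotic controls whose titles call them untreated, although the protocol field repeats the injection scheme for every sample; groups were taken from the titles. No healthy liver and no empty particle was among the samples, so the drug, its carrier and the injections cannot be told apart. The replicates are numbered but not said to be separate animals, and if they are not, the p-values measure technical spread. The labels give neither age nor sex.

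Hepatocytes are polarised cells. On the basolateral side, facing the blood, they take up bile acids with the sodium-dependent carrier Slc10a1 (NTCP) and sodium-independent organic anion carriers of the Slco family. On the canalicular side they secrete bile acids with Abcb11 (the bile salt export pump), phosphatidylcholine with the floppase Abcb4, and conjugated anions such as bilirubin glucuronides with Abcc2. Abcc3, Abcc4 and the heteromeric carrier Slc51a-Slc51b return bile acids and conjugates to the blood, a route known for its use in cholestasis.

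Library totals ranged from 30554483 to 39838428 counts. Control replicate 3 stood apart, with 26.7% of counts from mitochondrially encoded genes against 11.96% to 19.8% in the other 5, and with a TMM scaling factor of 0.809 against 0.937 to 1.13. Alb, the hepatocyte marker for albumin, measured 40254 ± 3265 CPM after AL/NP and 47339 ± 5411 CPM without it (SD, n = 3 in each). CPM are counts scaled to a common library size, here after TMM scaling, which corrects for library composition. Each library held between 6756 and 38925 counts of Xist, the RNA of the inactive X chromosome, and at most 5 counts of any of the Y-linked genes Ddx3y, Eif2s3y, Kdm5d and Uty.

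Of the 9 tested transporters, 8 had a negative log2 fold change (AL/NP over control) and 1 a positive one, with a median of -1.15 where the median of all tested genes was -0.00025. That median is the value of Abcb11, which was -0.24 without control replicate 3. The edgeR quasi-likelihood test called 0 of the 9 at an adjusted p under 0.05, where 0.0816% of all tested genes were called. At an unadjusted p under 0.05, 6 of 9 were lower with AL/NP, where the background in that direction was 10.3%. Without control replicate 3 this count was 5. The groups did not overlap in 4 of 9, namely Slco1b2, Abcc2, Abcc4 and Slc51b, all lower with AL/NP in all 3 libraries, against 15.0% of tested genes. DESeq2, run on the same counts as an alternative, called 4 of 9 lower (Slco1a4, Slco1b2, Abcc4 and Slc51b) against 2.48% of the genes it tested, and limma-voom called 0. By role, the median log2 fold change was -1.19 over 3 tested uptake carriers, -0.67 over 3 canalicular exporters and -1.24 over 3 basolateral exporters. Each median of 3 is the value of a single gene, and genes of the same role differed. The ranges were -1.42 to -0.28 for uptake, -1.15 to -0.13 for canalicular export and -1.81 to 0.08 for basolateral export. Since this is whole tissue, fewer hepatocytes and less RNA per hepatocyte cannot be told apart. The sum over 10 hepatocyte markers was 54877 to 63451 CPM after AL/NP and 64152 to 84538 CPM in the controls, with 8 of 10 negative, 0 of 10 called by edgeR and none at 0 counts; Ttr was at -0.82 and Serpina1a at 0.704 on the log2 scale. Alb alone made up most of each sum, at 36814 to 43309 CPM after AL/NP and 44091 to 53586 CPM in the controls, highest in control replicate 3. The median log2 fold change of the 10 markers was -0.38. The part of hepatocyte number in the transporter values was not tested.

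**Figure D1:**
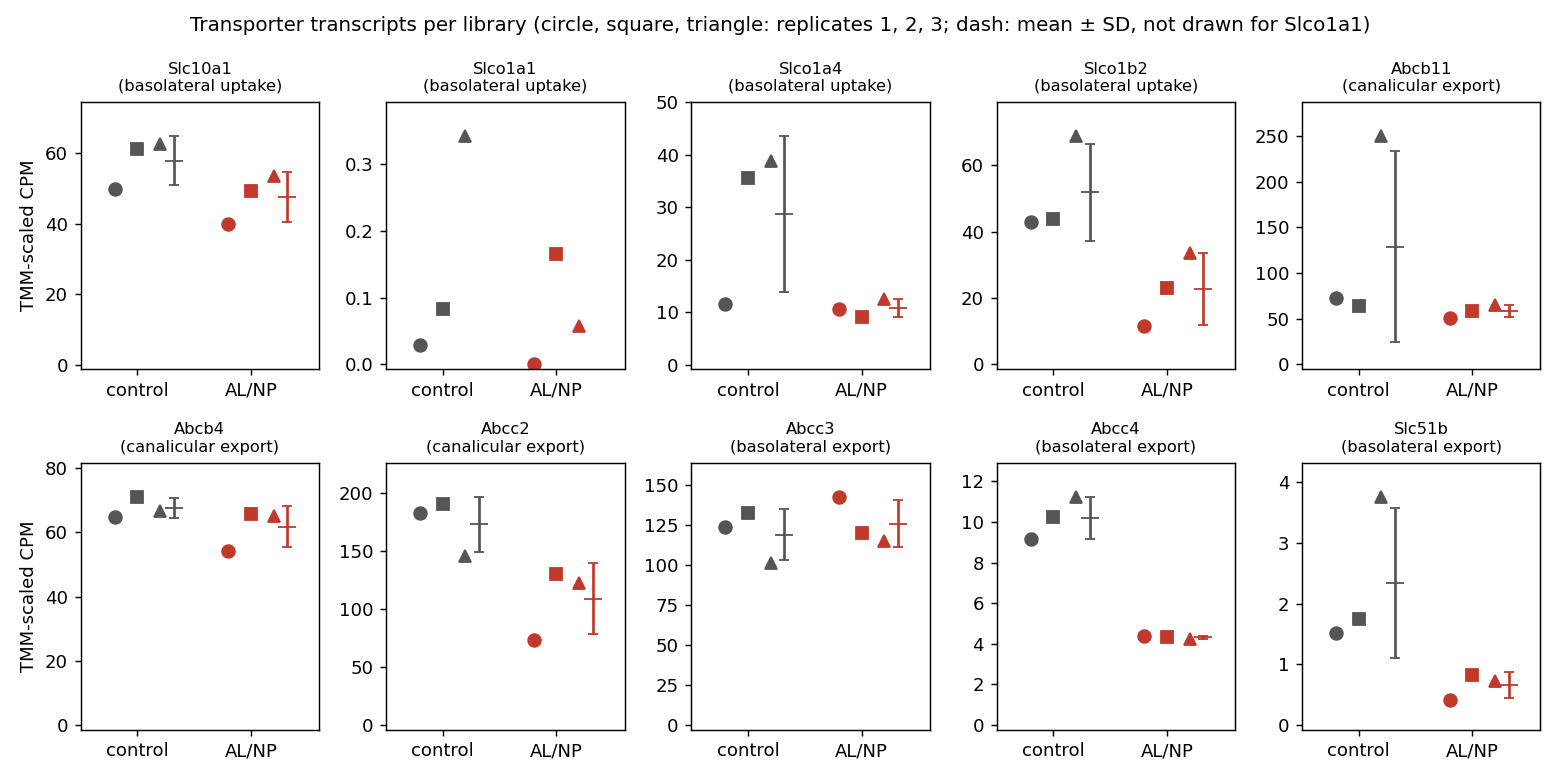
Level of each transporter transcript in each library, in TMM-scaled CPM on a linear axis with its own scale per gene; points are libraries (control grey, AL/NP red) and dashes with bars are mean ± SD of 3. The groups are separate for Slco1b2, Abcc2, Abcc4 and Slc51b, and control replicate 3 stands far above the rest for Abcb11, at 250.2 CPM.

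The sequences just upstream of Slco1b2 and Abcc4 are shown because these are an uptake carrier and an exporter whose groups did not overlap. Each is the 250 bases before the RefSeq transcription start (build GRCm38.p6), 5′ to 3′ on the gene's strand, with motif matches in capitals. The Slco1b2 window is chr6:141629268-141629517 on the plus strand and the Abcc4 window is chr14:118706220-118706469 on the minus strand. The windows of Abcc2 and Slc51b, whose groups did not overlap either, run into the GENCODE gene and are described by their matches alone.
Slco1b2: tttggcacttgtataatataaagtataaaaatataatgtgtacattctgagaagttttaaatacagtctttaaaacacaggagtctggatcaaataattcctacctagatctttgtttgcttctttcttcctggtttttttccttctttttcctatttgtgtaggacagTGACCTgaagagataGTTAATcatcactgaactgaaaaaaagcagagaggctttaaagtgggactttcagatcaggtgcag
Abcc4: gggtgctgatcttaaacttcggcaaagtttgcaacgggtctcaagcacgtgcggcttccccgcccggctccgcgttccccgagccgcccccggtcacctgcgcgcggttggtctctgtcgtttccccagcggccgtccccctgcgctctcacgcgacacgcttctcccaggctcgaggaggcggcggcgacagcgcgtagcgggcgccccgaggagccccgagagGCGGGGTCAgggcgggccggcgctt

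RefSeq windows were found for 9 of the 10 genes, and Abcc3 had none. The Slco1a4 window, which had 0 matches, begins at 141856221, beyond the GENCODE gene end at 141856199. The bases after its RefSeq start were in no GENCODE transcript of that gene, so that start is less certain. Both strands were searched for 5 motifs, and no matches in these 9 windows overlapped each other. The core of the antioxidant response element bound by NRF2, TGACNNNGC, matched in 2 of 9, Abcc2 (bases 98 to 90 before the start) and Abcc4 (bases 25 to 17, on the opposite strand), and in 10.2% of all 32851 windows of that length. The nuclear receptor half-site AGGTCA matched in 5 of 9 (Slco1a1, Slco1b2, Abcb11, Abcc2 and Slc51b) and in 14.0% of all windows. The HNF1 half-site GTTAAT matched in Slco1b2 alone, 66 to 61 bases before the start, and in 6.43% of all windows. The HNF4 element core CAAAGTCCA (0.384% of all windows) and the inverted repeat of the half-site with 1 base between, bound by FXR (0.00609%), matched in 0 of 9. These are matches of letters and not binding sites.

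Among the uptake carriers, Slc10a1, the main bile acid importer (chromosome 12, 80953183 to 80968705, 6 exon blocks), measured 39.8, 49.3 and 53.5 CPM in AL/NP replicates 1 to 3 and 49.9, 61.3 and 62.5 CPM in control replicates 1 to 3. The groups overlapped, since the highest AL/NP library lay above the lowest control. Its log2 fold change was -0.28 (SE 0.167, 95% interval -0.66 to 0.0962, adjusted p = 0.359, edgeR); the test did not resolve a difference within that interval.

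Slco1b2, the mouse OATP1B carrier of bile acids, bilirubin and drugs (chromosome 6, 141629518 to 141686646), measured 11.5, 23.1 and 33.4 CPM after AL/NP and 42.8, 43.8 and 68.8 CPM in the controls. Every AL/NP library was under every control, with AL/NP replicate 1 the lowest and control replicate 3 the highest. The means were 22.7 ± 10.9 and 51.8 ± 14.7 CPM (SD, n = 3), and the log2 fold change was -1.19 (SE 0.362, adjusted p = 0.159, edgeR; adjusted p = 0.0215, DESeq2). Leaving out AL/NP replicate 1 gave -0.87, and leaving out AL/NP replicate 3 gave -1.58.

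Slco1a4 (OATP1A4), a carrier of bile acids, steroid conjugates and cardiac glycosides (chromosome 6, 141805440 to 141856199), measured 10.6, 9.11 and 12.6 CPM after AL/NP and 11.7, 35.6 and 38.8 CPM in the controls. Control replicate 1 lay within the AL/NP range, while the other two controls stood far above every AL/NP library. The log2 fold change was -1.42 (SE 0.400, adjusted p = 0.147, edgeR; adjusted p = 0.00918, DESeq2). Without control replicate 1 it was -1.79 and edgeR called it (adjusted p = 0.0403), the only edgeR setting tried that did. The call thus depended on the method as well as on that library, since DESeq2 made it with all libraries. The Slco1a genes are close copies: the longest coding transcript of Slco1a4 matched Slco1a5 at 88.9% identity over 2153 bases and Slco1a1 at 86.3% over 1845 bases. How the authors treated reads with several matches is not given in the sources used here, so reads could be split among these genes.

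Slco1a1 (OATP1A1), an uptake carrier known for higher expression in male than in female mouse liver (chromosome 6, 141907282 to 141946962), was the member too low to test. It had 0, 6 and 2 counts in AL/NP replicates 1 to 3 and 1, 3 and 11 in control replicates 1 to 3, or 8 against 15 in all. A level of 3 counts corresponds to 0.0826 to 0.104 CPM in these libraries, so 3 of the 6 libraries were under it and no difference was detectable at this depth. The ratio of Slco1a1 to its neighbour Slco1a4 rested on these few counts, with 0.5 added to each: log2 -7.46 ± 1.79 with AL/NP and -7.79 ± 0.916 in controls (exact permutation p = 0.9, two-sided, n = 3). Of 10 other genes known as male-predominant in mouse liver, 6 were tested and 0 were called, with a median log2 fold change of -0.05. Cyp4a12a, Elovl3, Hsd3b5 and Susd4, the other four, were too low as well. Of 11 female-predominant genes, 10 were tested, with a median log2 fold change of -0.70, and 5 were lower at an unadjusted p under 0.05 (edgeR), against 10.3% of all tested genes. Among them Hao2, a peroxisomal hydroxyacid oxidase, was at -1.51 (adjusted p = 0.0928, edgeR). In the male-predominant list the smallest p-values were those of Mup20 (-0.59) and Cyp7b1 (0.399), neither called.

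Abcb11, the canalicular bile salt export pump (chromosome 2, 69238282 to 69342616), measured 51.3, 58.3 and 65.0 CPM after AL/NP and 72.6, 64.4 and 250.2 CPM in the controls. Control replicate 3 was far above all other libraries, control replicate 1 just above every AL/NP library, and control replicate 2 within the AL/NP range. The log2 fold change was -1.15 (SE 0.495, 95% interval -2.30 to -0.0018, adjusted p = 0.254, edgeR), and it was -0.24 without control replicate 3, so most of the difference came from that library. Its coefficient of variation was 81.3% among controls and 11.7% among AL/NP libraries.

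Abcb4, which moves phosphatidylcholine into bile (chromosome 5, 8893717 to 8959231), measured 54.3, 65.7 and 65.1 CPM after AL/NP and 64.9, 71.0 and 66.7 CPM in the controls. The groups overlapped and the libraries were close to each other, with coefficients of variation of 10.4% and 4.66%. The log2 fold change was -0.13 (SE 0.143, 95% interval -0.45 to 0.194, adjusted p = 0.623, edgeR), and 0.0126 when counts were scaled by library totals, a scaling that also shifted the all-gene median to 0.133.

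Abcc2 (MRP2), the canalicular pump for glucuronide and glutathione conjugates (chromosome 19, 43782192 to 43840740), measured 73.8, 130.3 and 122.6 CPM after AL/NP and 183.0, 190.2 and 146.1 CPM in the controls. All AL/NP libraries were under all controls, AL/NP replicate 1 by the widest margin. Means were 108.9 ± 30.7 and 173.1 ± 23.7 CPM (SD, n = 3), with a log2 fold change of -0.67 (SE 0.231, adjusted p = 0.189, edgeR; adjusted p = 0.0950, DESeq2). Here control replicate 3 was the lowest control, the opposite of its place for Abcb11. Within each library the log2 ratio of Abcc2 to Abcb11 counts, which does not depend on scaling, was 0.523, 1.16 and 0.916 with AL/NP and 1.33, 1.56 and -0.776 in controls. Their difference was 0.16 (exact permutation p = 1.0, two-sided, n = 3) and -0.58 without control replicate 3, with the sign reversed.

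Of the basolateral exporters, Abcc4 (MRP4), which exports bile acids together with glutathione and also cyclic nucleotides (chromosome 14, 118482692 to 118706219, 33 exon blocks), gave the smallest p of the 9. It measured 4.38, 4.35 and 4.24 CPM in AL/NP replicates 1 to 3 and 9.16, 10.2 and 11.2 CPM in control replicates 1 to 3. The groups were far apart, and the coefficient of variation among AL/NP libraries was 1.74%. The counts behind these values were 126, 158 and 146 against 319, 371 and 361. The log2 fold change was -1.24 (SE 0.170, 95% interval -1.63 to -0.85), with a mean level 42.3% that of the controls. It missed the threshold in edgeR (unadjusted p = 5.40e-05, adjusted p = 0.0579) and passed it in DESeq2 (adjusted p = 1.60e-06). Over every other setting tried the log2 fold change of Abcc4 stayed between -1.31 and -1.09, with adjusted p from 1.60e-06 to 0.236.

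Abcc3 (MRP3), a basolateral exporter of glucuronides and bile acids (chromosome 11, 94343295 to 94392997), measured 142.4, 119.8 and 114.8 CPM after AL/NP and 123.3, 132.3 and 101.0 CPM in the controls. It was the one tested member with a positive estimate, and the groups overlapped in part: AL/NP replicate 1 lay above every control and control replicate 3 below every AL/NP library. The log2 fold change was 0.08 (SE 0.167, 95% interval -0.30 to 0.459, adjusted p = 0.813, edgeR), and its sign turned without AL/NP replicate 1 (-0.019) or without control replicate 3 (-0.027). The log2 ratio of Abcc4 to Abcc3 counts was -5.02, -4.78 and -4.76 with AL/NP and -3.75, -3.69 and -3.17 in controls. All 3 AL/NP values were under all 3 control values, with means of -4.86 ± 0.145 and -3.54 ± 0.318 (SD, n = 3). The difference of -1.32 gave an exact permutation p of 0.1 (two-sided, n = 3), the smallest that 3 against 3 allows, or 0.3 after Benjamini-Hochberg adjustment over the 3 ratios tested.

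Slc51b (OST-beta), the small subunit of the heteromeric bile acid exporter (chromosome 9, 65412714 to 65422955), was low. It had 12, 30 and 25 counts, or 0.417, 0.826 and 0.725 CPM, with AL/NP and 53, 63 and 121 counts, or 1.52, 1.74 and 3.76 CPM, in controls. All AL/NP libraries were under all controls, and control replicate 3 was again the highest. The log2 fold change of -1.81 (SE 0.443, 95% interval -2.82 to -0.81) was the largest in size of the 9 (adjusted p = 0.126, edgeR; adjusted p = 0.00566, DESeq2), and it was -1.30 without control replicate 3. Its exons share 91 bases with Rasl12 on the opposite strand, which had 93 counts over all libraries; the strand setting of the counting is not given in the sources used here. Its partner subunit, Slc51a, had 0 counts in all 6 libraries, which allows up to 0.0826 to 0.104 CPM per library.

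**Figure D2:**
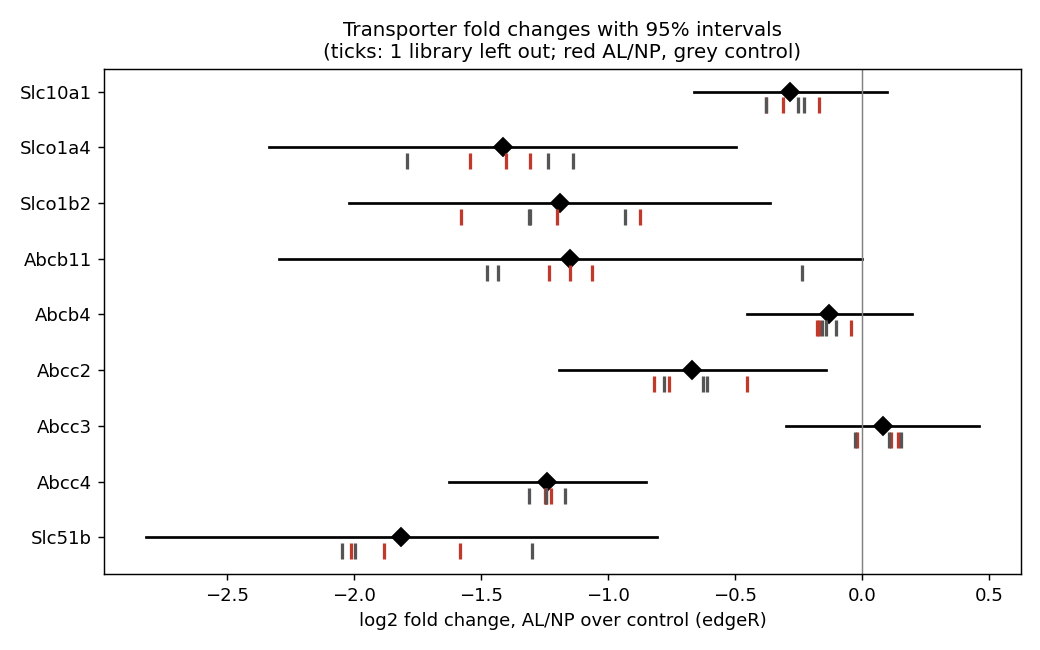
Log2 fold change (AL/NP over control, edgeR) of the 9 tested transporters on the x axis, with 95% intervals; ticks show the estimate with 1 AL/NP (red) or control (grey) library left out. Abcc4 stays between -1.31 and -1.17, whereas Abcb11 moves from -1.15 to -0.24 without control replicate 3.

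**Figure D3:**
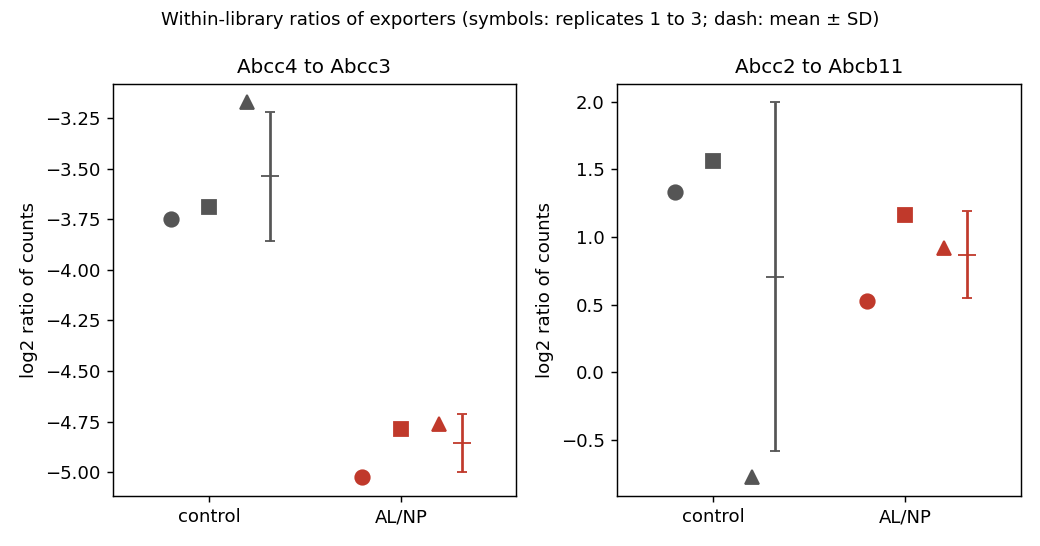
Within-library log2 ratio of counts for Abcc4 to Abcc3 (left) and Abcc2 to Abcb11 (right), each point a library, dashes with bars mean ± SD of 3. The groups are apart for Abcc4 to Abcc3, at -4.86 against -3.54, and overlap for Abcc2 to Abcb11, where control replicate 3 is the lowest at -0.776.

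The same libraries were often at the ends of the range. AL/NP replicate 1 was the lowest library for 6 of the 9 tested members and control replicate 3 the highest for 6 of 9. Abcc3 had the reverse order, with AL/NP replicate 1 its highest and control replicate 3 its lowest.

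To compare genes with each other, CPM were divided by the length of exonic sequence in kilobases (GENCODE M21, all transcripts of a gene merged). Merged length exceeded that of the longest coding transcript unevenly. It was 9383 against 4079 bases for Abcb4, 6414 against 3823 for Slco1a4 and 5146 against 5025 for Abcb11. The order given here therefore holds for merged lengths only, and no other length was tried. In controls Slc10a1 had the highest length-scaled mean, 26.3 ± 3.16 CPM per kilobase (SD, n = 3), followed by Abcb11 at 25.1 ± 20.4, Abcc3 at 20.9 ± 2.82 and Abcc2 at 20.3 ± 2.77; the ranges of neighbours among these 4 overlapped, so their order is not resolved. Slco1b2 followed at 10.5 ± 2.98 and Abcb4 at 7.20 ± 0.335, each apart from its neighbours on merged length. Slco1a4 at 4.48 ± 2.31 and Slc51b at 3.30 ± 1.74 overlapped. Abcc4, with a range of 1.43 to 1.76, and Slco1a1, at 0.0286 ± 0.0317 CPM per kilobase, were the lowest, each apart from the gene before it. With AL/NP, Abcc3 at 22.1 ± 2.58 and Slc10a1 at 21.6 ± 3.20 CPM per kilobase had the highest means, and Abcc4 stood at 0.676 ± 0.0118.

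**Figure D4:**
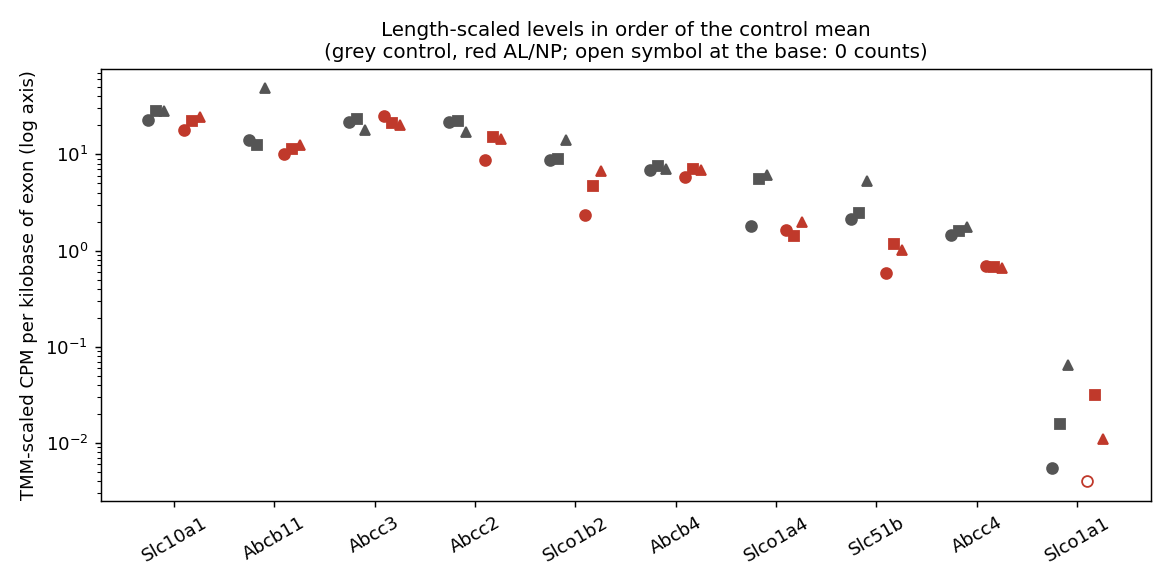
TMM-scaled CPM per kilobase of exon on a log axis for each transporter and library (control grey, AL/NP red), genes ordered by control mean; the open symbol marks the library with 0 counts of Slco1a1. On merged exon lengths, Slc10a1, Abcb11, Abcc3 and Abcc2 share the top of the scale at 20.3 to 26.3 in control means, and Slco1a1 lies far below all others at 0.0286.

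Among 20 other hepatobiliary transporters, 18 were tested and edgeR called 0; 8 of 18 were lower at an unadjusted p under 0.05 against the background of 10.3%, and the list's median log2 fold change was -0.26. The smallest p-values were those of Abcg5 and Abcg8, the paired subunits that secrete cholesterol into bile. Abcg5 measured 15.5, 31.2 and 28.5 CPM after AL/NP and 77.0, 76.3 and 112.7 CPM in the controls (log2 fold change -1.82, SE 0.280, adjusted p = 0.0749, edgeR; adjusted p = 2.10e-07, DESeq2). Abcg8 measured 12.3 ± 4.73 CPM after AL/NP against 38.6 ± 1.74 CPM (SD, n = 3) (log2 fold change -1.65, SE 0.268, adjusted p = 0.0783, edgeR; adjusted p = 3.61e-06, DESeq2). Both had all AL/NP libraries under all controls. With the replicate block, edgeR called Abcg5 (adjusted p = 0.0436) and not Abcg8 (adjusted p = 0.0612). The next 2, chosen after their values were seen, were Abcc6, at 93.5 ± 16.9 against 227.5 ± 90.1 CPM (log2 fold change -1.28, adjusted p = 0.108), and Abcg2, an exporter of sulphate conjugates (log2 fold change -0.47, adjusted p = 0.183).

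Of 14 enzymes of bile acid synthesis and conjugation, 14 were tested and 0 called by edgeR, with a median of -0.32. At an unadjusted p under 0.05, 4 were lower, where 10.3% of all tested genes were, and 1 was higher, Cyp39a1, an oxysterol hydroxylase at 0.46, named after its value was seen. Akr1d1, the reductase that acts on the steroid ring, measured 2.64, 5.37 and 8.38 CPM after AL/NP and 19.5, 19.9 and 31.6 CPM in the controls (log2 fold change -2.11, SE 0.387, adjusted p = 0.0928, edgeR; adjusted p = 3.80e-06, DESeq2). With the replicate block, edgeR called Akr1d1 (adjusted p = 0.0436). Baat, which joins bile acids to taurine, overlapped between groups (log2 fold change -0.72, adjusted p = 0.228). Cyp7a1, the rate-limiting enzyme of the classical route, was added after its values were seen: it measured 8.54 CPM in control replicate 3, the library with the high Abcb11, and 0.144 and 0.470 CPM in the other controls, against 0.0348 to 0.493 CPM with AL/NP.

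Of 18 nuclear receptors and other regulators of transporter genes, 17 were tested and 0 called by edgeR, with a median of -0.16. At an unadjusted p under 0.05, 4 were lower, against the same 10.3% of all tested genes, and 0 were higher. Nr1i3, the xenobiotic receptor CAR, measured 16.8, 34.0 and 65.8 CPM after AL/NP and 150.8, 124.2 and 110.7 CPM in the controls (log2 fold change -1.73, SE 0.430, adjusted p = 0.133). Ppara, the fatty acid receptor, measured 7.63 ± 0.427 against 12.8 ± 3.29 CPM (log2 fold change -0.75, adjusted p = 0.147). Nr0b2 (SHP), a target and partner of the bile acid receptor FXR that was picked after its values were seen, was under every control in all AL/NP libraries (log2 fold change -1.03, adjusted p = 0.166). Nr1h4, which encodes FXR, was at -0.50 (adjusted p = 0.290). Of 7 target enzymes of CAR and PXR, 7 were tested and 0 called, with a median of 0.41, led by Por at 0.51 and Cyp2c55 at -1.36. Of 10 NRF2 targets, 10 were tested and 0 called, with a median of 0.126, led by Txnrd1 at 0.52 and Hmox1 at 0.43; Nfe2l2, which encodes NRF2, was at 0.0188.

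Genes of inflammation and of other cell types were compared in the same libraries. Of 22 acute phase genes, 22 were tested and edgeR called 4 higher and 0 lower, where 0.0816% of all tested genes were called, with a median of 0.997: on the log2 scale Saa1 rose by 4.15, Saa3 by 3.29, Orm2 by 1.78 and Orm3 by 1.57 (adjusted p = 0.0493 for each, edgeR). DESeq2 called these 4 as well, but in edgeR all 4 lost the call with library totals only, with at least 50 counts in 3 libraries, without robust estimation, and without any 1 library other than AL/NP replicate 1. Without AL/NP replicate 1, Saa1 and Orm2 were called and Saa3 and Orm3 were not. The summed level of 10 macrophage and Kupffer cell markers was 379.8 to 591.2 CPM after AL/NP and 199.0 to 299.4 CPM in the controls, with 0 called and the lowest p-values at Mpeg1 (61.2 ± 9.58 CPM in the controls and 140.8 ± 11.9 CPM after AL/NP, adjusted p = 0.0579) and Cd5l (18.7 ± 1.77 and 44.9 ± 10.2 CPM, adjusted p = 0.0640). Of these 10 markers, 9 had a positive log2 fold change and 1 a negative one. Other Kupffer cell markers, named after their values were seen, were split. Clec4f (-0.20), Timd4 (0.157) and Vsig4 (0.372) overlapped between the groups, and Marco (0.960) did not. The 8 neutrophil markers summed to 34.8 to 75.3 CPM after AL/NP and 19.0 to 34.3 CPM in the controls, and 0 of 6 tested were called, with S100a9 (log2 fold change 1.30, adjusted p = 0.121, edgeR) and S100a8 (1.48, adjusted p = 0.140) first by p. The sums overlapped between the groups for 10 cholangiocyte markers (476 to 898 against 441 to 619 CPM), 10 pericentral hepatocyte markers (528 to 814 against 322 to 643 CPM), 8 stellate cell markers (216 to 527 against 259 to 781 CPM) and 8 endothelial markers (138 to 158 against 113 to 161 CPM), with 0 called in each. Among the genes first by p in these lists were Tspan8 (1.45), Rnase4 (1.27) and Oat (0.642), Reln (-0.56) and Lrat (-0.35), and Pecam1 (0.430) and Vwf (0.432), given as log2 fold changes. Spp1, named after its values were seen, made up most of the cholangiocyte sum, at 417 to 830 CPM with AL/NP and 376 to 558 CPM in the controls. Of 9 tested cholangiocyte markers, 8 were positive and 1 negative, with a median log2 fold change of 0.527. No marker of these lists was at 0 counts over all libraries, and the part of these cells in the transporter values was not tested.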

How the data were processed

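Liver RNA of 6 libraries, 3 per group, was poly(A)-selected and sequenced in paired ends with a strand-marking kit, per the labels' protocols. The deposited table holds whole-number read counts per Ensembl gene. Build GRCm38, STAR 2.6.1a, featureCounts and DESeq2 1.26.0 are named in the submitters' processing notes; annotation release, strand setting, filters and the treatment of reads with several matches are not given in the sources used here. Of 41388 identifiers, 40254 matched a symbol. Coordinates and exon lengths are from GENCODE M21 (GRCm38), promoter windows from RefSeq (GRCm38.p6), and transcript identities from blastn 2.17.0.

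The groups were compared across all genes in R 4.3.3 by edgeR 4.0.16, quasi-likelihood test (TMM, robust fit, filterByExpr with a minimum count of 10), adjusted by Benjamini-Hochberg over 15939 genes, with a threshold of 0.05. SE is the log2 fold change over the square root of F. Ratios of counts within a library used exact permutation tests; Slco1a1 had a 0, so 0.5 was added for its ratio, which the design had not foreseen. Intervals cover spread between libraries, and limits from 3 counts cover only counting error, as reads copied by PCR are not separate molecules. Library totals were 30554483 to 39838428. The test was checked on simulated counts. No pair of libraries was a duplicate: the lowest chi-square per degree of freedom was 30.6.

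Alternatives were DESeq2 1.42.0, limma-voom (limma 3.58.1), DESeq2 size factors, library totals, other filters, a fit that was not robust, removal of the 10 most abundant genes, the replicate number as a block and each library left out. Leaving out mitochondrially encoded genes and adding 1 count to a ratio were chosen after seeing the data. The members and the 16 other lists (178 genes) were chosen with earlier results of these data known. The text names all members and, per list, called genes and the 2 tested genes with the smallest p, with sex chromosome genes in full; Nr1h4, Nfe2l2 and Slc51a were named for their role, and others outside the rule are marked as chosen after their values were seen. Some genes picked this way, 1 of them called, are not reported here.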

Additional observations from a re-analysis of the deposited data

How the results depend on the processing

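Of the all-gene counts, 13 genes were called by edgeR, against 844 by DESeq2, 747 with no filter beyond 1 count, 23 with the replicate block, and 0 with library totals only, with at least 50 counts in 3 libraries, and with no robust estimation; with 1 library left out the count was 0 to 4. Transporters called numbered 0, but 4 by DESeq2, 2 with no filter beyond 1 count (Abcc4 and Slc51b), and 0 to 1 with a library left out, the 1 being Slco1a4 without control replicate 1. The count of transporters lower at an unadjusted p under 0.05 was 4 to 6 over all settings. Reversed signs were those of Abcb4 with library totals only (0.0126) and of Abcc3, which ranged from -0.0268 to 0.154 with a library left out. The log2 ratio of Abcc2 to Abcb11 ranged from -0.58 to 0.588, and that of Slco1a1 to Slco1a4 from -0.56 to 1.24, with a library left out. The cause of these differences was not tested. Of 144 alternative values of single members, 134 kept sign and side of the threshold, 7 became called and 3 reversed; of 527 for the other named genes, 455, 24 and 0, and 48 lost a call. Libraries with the same replicate number did not deviate together (correlations -0.0548, 0.0427 and 0.0752), not every library correlated best with its own number, and the replicate block called 0 transporters and left the log2 ratio of Abcc4 to Abcc3 at -1.32 (exact sign-flip p = 0.25). Depth limits Slco1a1 (0 to 11 counts per library) and Slc51a (0 counts).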

Other observations

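Xist measured 194 CPM in control replicate 1 and 1075 and 1141 CPM in the other controls, and whether this spread bears on the comparison was not tested. With AL/NP it measured 327 to 579 CPM. Control replicate 1 was also the control with the low Slco1a4, at 11.7 CPM against 35.6 and 38.8 CPM.

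Control replicate 3, in which Abcb11 reached 250.2 CPM, was also the highest library for the drug extruder Slc47a1, with 224.4 CPM against 87.9 and 112.3 CPM in the other controls and 69.0 to 79.2 CPM with AL/NP. The same library was the highest for Cyp7a1 and Abcc6, the latter at 330.5 CPM against 163.3 and 188.7 CPM in the other controls. It was the lowest control for Abcc2, Abcc3 and the sulphate conjugate exporter Abcg2, the last at 31.8 CPM. These genes were chosen after their values were seen.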
